A study of Mus musculus with 5 samples.

Results

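Fibroblast growth factors (FGFs) signal through receptor tyrosine kinases on the cell surface, which with heparan sulfate bind the ligand and pass the signal through the adaptor Frs2 to Ras and the kinases ERK1 and ERK2. ERK switches on the ETS transcription factor genes Etv4 and Etv5 and a set of inhibitors, the Sprouty (Spry) and Spred proteins and the phosphatase Dusp6, which then damp the same pathway. In skeletal muscle, Fgfr4 is the receptor typical of embryonic and fetal myoblasts, and Spry1 is known in mice as a gene of quiescent muscle stem cells. The 10 genes described here are 3 receptor genes (Fgfr1, Fgfr4, Fgfrl1), 4 Sprouty and Spred genes (Spry1, Spry2, Spry4, Spred1), the phosphatase gene Dusp6, and the target genes Etv4 and Etv5. They were picked by name from 25873 named genes in the deposited expression table, all 10 had a row in it, and all 10 passed the filter on low values that left 11543 genes for testing.

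RNA was sequenced from sorted fetal muscle cells of C57BL/6J mice at E16.5. Notch2 cKO fetuses carried Pax7-CreER, floxed Notch2 and a Rosa-tdTomato reporter (2 libraries, tagged Em3 and Em4 in the deposited table). Notch1 cKO fetuses carried Pax7-CreER, floxed Notch1 and the reporter (1 library, Em8). Wild-type (WT) controls carried Pax7-CreER and the reporter with no floxed Notch gene (2 libraries, Em2 and Em4). All dams were given tamoxifen orally for 2 days from E12.5 at 240 mg/kg, so the controls share the recombinase, the reporter and the drug. Recombination was driven from Pax7, so only progenitors that made Pax7 in that window, and their descendants, are marked or lose a receptor. Cells bearing CD31, CD45 or Ter119 were excluded in the sort. The labels do not say whether libraries came from separate fetuses, and p-values therefore cannot be read as a spread among fetuses. The spread behind each p-value, SE and interval is mostly pooled over all genes (2 residual and 103.8 prior degrees of freedom). Little of it is how that gene itself varied among these libraries. Loss of cells of a kind and less RNA per cell cannot be told apart in such bulk samples.

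Library totals ran from 20740258 to 28827897 reads. Notch1 itself measured 2.33 RPKM (reads scaled to gene length and library total) in the Notch1 cKO library, against 7.26 and 13.5 RPKM in WT, and passed the test (fold change −1.72 on the log2 scale, SE 0.39, limma adjusted p = 0.0443). Notch2 measured 3.35 and 2.03 RPKM under the Notch2 cKO label, against 2.40 and 4.17 RPKM in WT (a fold change of −0.21 on the log2 scale, SE 0.32, adjusted p = 0.905), and a whole-gene value cannot show the loss of some exons. All 10 markers of the myogenic lineage used for this check were detected in every library, with Myog at 1655 and 1737 RPKM in Notch2 cKO, 944 RPKM in Notch1 cKO, and 1053 and 1272 RPKM in WT. The WT libraries differed from each other along gene length: the log2 difference WT Em4 minus WT Em2 had a Spearman's rho of 0.48 with gene length across 11541 genes, which share the same pair of libraries, and 69.2% of genes were higher in WT Em4. All 10 of the FGF pathway genes were higher in WT Em4 than in WT Em2, with a median log2 difference of 0.65, against 0.20 for all genes tested.

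Every log2 fold change here is on the log2(RPKM + 1) scale, from a limma fit across all 11543 genes with the spread shared between groups, and a gene is called where its Benjamini-Hochberg adjusted p is under 0.05. In Notch2 cKO against WT, 0 of the 10 genes were called, against a background of 0.537% of all genes. In Notch1 cKO against WT, 0 of 10 were called, against 0.0693% of all genes, and in Notch2 cKO against Notch1 cKO, 0 of 10, against 0.485%. Limma voom on reads recovered from the RPKM values also called 0 of 10 in each comparison, where it called 1, 3 and 14 of all genes, in the same order. Without adjustment, 5 of the 10 had a limma p under 0.05 in Notch2 cKO against WT (7.63% of all genes), 0 in Notch1 cKO against WT (1.85%) and 6 in Notch2 cKO against Notch1 cKO (8.66%). Voom gave 5, 0 and 5 of the 10, against 812, 170 and 874 of 11541 genes. The 5 genes of the limma count in the first comparison were Spry1, Spry4, Spred1, Dusp6 and Etv5, each with a positive fold change. With the gene length trend removed, their log2 fold changes in that comparison were 0.75, 0.49, 0.65, 0.48 and 0.47, in the same order. Their limma adjusted p then ran from 0.794 to 0.893. The genes were chosen with earlier results of these data known, so these counts are a description. All genes together had a median log2 fold change of 0.14 in Notch2 cKO against WT, 0.01 in Notch1 cKO against WT and 0.12 in Notch2 cKO against Notch1 cKO, and the corresponding medians of the 10 genes were 0.43, −0.03 and 0.64.

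**Figure D1:**
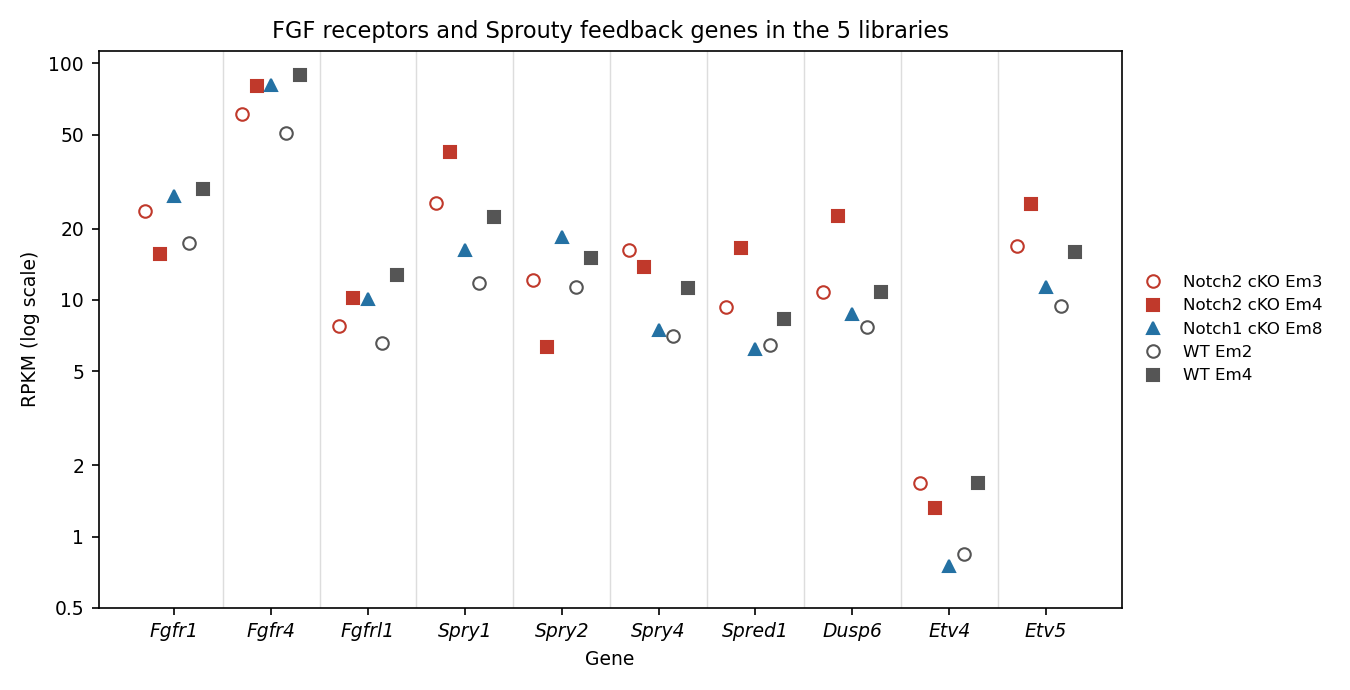
RPKM of the 10 genes in each library on a log axis, with each symbol a library (red Notch2 cKO, blue Notch1 cKO, grey WT). Fgfr4 lies above every other gene in each library, Etv4 lies below 2 RPKM throughout, and Spry1, Spred1, Dusp6 and Etv5 are highest in Notch2 cKO Em4, where Spry2 is lowest at 6.30 RPKM.

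By their mean over the 5 libraries, the genes ran in the order Fgfr4 (72.5 RPKM), Spry1 (23.7), Fgfr1 (22.7), Etv5 (15.8), Spry2 (12.7), Dusp6 (12.1), Spry4 (11.1), Fgfrl1 (9.50), Spred1 (9.39) and Etv4 (1.26). RPKM is a level per length, so these values can be set beside each other only as far as the lengths used allow. Those lengths were 1499 bases for Spred1 and 5008 for Fgfr1, where all GENCODE M21 exons cover 6784 and 9875 bases. For Spry2 both were 2087 bases. The lowest Fgfr4 value, 50.8 RPKM, was above the highest value of any other gene of the set, 42.3 RPKM for Spry1. The highest Etv4 value, 1.69 RPKM, was below the lowest of the others, 6.21 RPKM for Spred1. Between these ends, each gene's range over the libraries overlapped that of its neighbours in the order. Fgfr4 lay above 86.7% of the genes tested and Etv4 above 3.74%.

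Among the receptors, Fgfr4 (ENSMUSG00000005320.9, GRCm38 chromosome 13, 55152640 to 55168759, plus strand) measured 61.3 and 80.5 RPKM in Em3 and Em4 of Notch2 cKO, 80.7 RPKM in Notch1 cKO Em8, and 50.8 and 89.0 RPKM in Em2 and Em4 of WT. Every knockout value lay between the WT values. Between Notch2 cKO and WT its log2 fold change was 0.06 (SE 0.27, 95% interval −0.47 to 0.59, adjusted p = 0.968), and −0.10 after median-of-ratios scaling and −0.19 with the gene length trend removed, and it was −0.34 without WT Em2, −0.13 without Notch2 cKO Em4, 0.26 without Notch2 cKO Em3 and 0.46 without WT Em4. In Notch1 cKO against WT it was 0.26 (SE 0.33, 95% interval −0.39 to 0.91, adjusted p = 1), −0.14 without WT Em2 and 0.66 without WT Em4. Notch2 cKO over Notch1 cKO gave −0.20 (SE 0.33, adjusted p = 0.921), −0.004 with Notch2 cKO Em3 left out and −0.39 with Notch2 cKO Em4 left out.

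Fgfr1 (ENSMUSG00000031565.18, GRCm38 chromosome 8, 25513654 to 25575718, plus strand), the receptor shared with many other cell types, measured 23.6 and 15.6 RPKM in Em3 and Em4 of Notch2 cKO, 27.5 RPKM in Notch1 cKO Em8, and 17.4 and 29.5 RPKM in Em2 and Em4 of WT. Notch2 cKO Em4 was below both WT libraries, while Notch2 cKO Em3 and Notch1 cKO Em8 lay between them. Fgfr1 had a log2 fold change of −0.23 in Notch2 cKO against WT (SE 0.28, 95% interval −0.79 to 0.34, adjusted p = 0.875), turning to 0.06 without Notch2 cKO Em4 and 0.14 without WT Em4, against −0.51 without Notch2 cKO Em3 and −0.59 without WT Em2. It was 0.27 in Notch1 cKO against WT (SE 0.35, 95% interval −0.42 to 0.96, adjusted p = 1), −0.10 without WT Em2 and 0.63 without WT Em4. Notch2 cKO over Notch1 cKO gave −0.50 (SE 0.35, adjusted p = 0.732), −0.78 with Notch2 cKO Em3 left out and −0.21 with Notch2 cKO Em4 left out.

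Fgfrl1 (ENSMUSG00000008090.14, GRCm38 chromosome 5, 108692382 to 108706924, plus strand) encodes a receptor that binds FGFs but has no tyrosine kinase domain. It measured 7.79 and 10.2 RPKM in Em3 and Em4 of Notch2 cKO, 10.1 RPKM in Notch1 cKO Em8, and 6.58 and 12.8 RPKM in Em2 and Em4 of WT, so that its knockout values also lay inside the WT range. Its log2 fold change was −0.04 in Notch2 cKO against WT (SE 0.31, 95% interval −0.67 to 0.58, adjusted p = 0.982), and 0.11 with libraries rescaled to the same summed RPKM, 0.13 without Notch2 cKO Em3, 0.39 without WT Em4, −0.22 without Notch2 cKO Em4 and −0.47 without WT Em2. In Notch1 cKO against WT it was 0.12 (SE 0.39, 95% interval −0.65 to 0.88, adjusted p = 1), −0.31 without WT Em2 and 0.55 without WT Em4. Notch2 cKO over Notch1 cKO gave −0.16 (SE 0.39, adjusted p = 0.95), 0.02 with Notch2 cKO Em3 left out and −0.34 with Notch2 cKO Em4 left out. As a ratio to the summed RPKM of Fgfr1 to Fgfr4, Fgfrl1 was 0.0910 and 0.104 in Notch2 cKO, 0.0926 in Notch1 cKO, and 0.0962 and 0.107 in WT.

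The other receptors with a kinase domain, Fgfr2 and Fgfr3, were under the filter of a mean of 1 RPKM and were not tested. Fgfr3, a receptor of cartilage, was 0.395 and 1.44 RPKM in Em3 and Em4 of Notch2 cKO, 0.614 in Notch1 cKO Em8, and 0.177 and 0.607 in Em2 and Em4 of WT. Fgfr2 was 0.262 and 0.636 RPKM in Em3 and Em4 of Notch2 cKO, 0.117 in Notch1 cKO Em8, and 0.138 and 0.147 in Em2 and Em4 of WT. Both were highest in Notch2 cKO Em4. Of the summed RPKM of Fgfr1, Fgfr2, Fgfr3 and Fgfr4, Fgfr4 made up 71.6% and 82.0% in Em3 and Em4 of Notch2 cKO, 74.1% in Notch1 cKO Em8, and 74.2% and 74.7% in Em2 and Em4 of WT. The Fgfr1 share was 27.6% and 15.9% in Notch2 cKO, 25.2% in Notch1 cKO, and 25.4% and 24.7% in WT. The WT libraries thus had nearly the same receptor make-up at summed levels of 68.5 and 119 RPKM, and the Notch2 cKO libraries lay on either side of it.

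**Figure D2:**
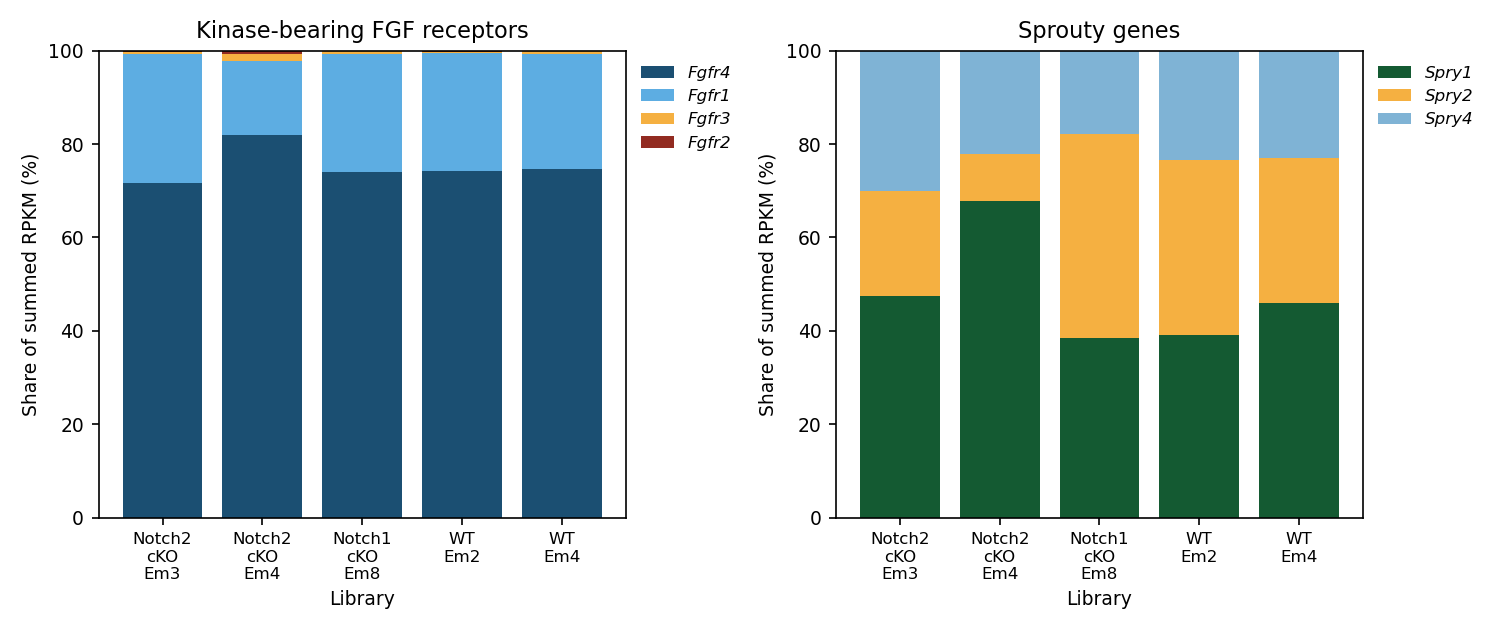
Share of the summed RPKM, in percent, taken by each kinase-bearing FGF receptor gene (left) and each of Spry1, Spry2 and Spry4 (right), with each bar a library. Fgfr4 takes over 70% of the receptor sum in each of the 5 libraries, and the Spry1 share runs from 38.5% in Notch1 cKO Em8 to 67.9% in Notch2 cKO Em4.

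The sequences upstream of Spry1, Spry2, Spred1 and Dusp6 are given because these inhibitor genes were the 4 of the 10 whose levels differed most between the Notch2 cKO libraries. RefSeq promoter windows on GRCm38.p6 matched 7 of the 10 members. The 250 bases before the RefSeq start are printed, at chr3:37639697-37639946 (plus strand) for Spry1, chr14:105896820-105897069 (minus strand) for Spry2, chr2:117120821-117121070 (plus strand) for Spred1 and chr10:99262981-99263230 (plus strand) for Dusp6. Capitals mark a GC box (GGGCGG) or a CCAAT box (CCAAT) on either strand.
Spry1: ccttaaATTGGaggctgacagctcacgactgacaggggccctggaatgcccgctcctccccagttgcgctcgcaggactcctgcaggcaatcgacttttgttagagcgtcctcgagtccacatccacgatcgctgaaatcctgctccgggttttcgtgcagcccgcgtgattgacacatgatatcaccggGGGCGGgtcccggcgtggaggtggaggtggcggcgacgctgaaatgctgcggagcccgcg
Spry2: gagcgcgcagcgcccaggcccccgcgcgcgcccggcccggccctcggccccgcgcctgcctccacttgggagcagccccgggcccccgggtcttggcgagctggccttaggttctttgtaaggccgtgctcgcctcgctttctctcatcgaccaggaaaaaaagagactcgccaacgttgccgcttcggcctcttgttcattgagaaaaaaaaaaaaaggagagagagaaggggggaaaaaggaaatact
Spred1: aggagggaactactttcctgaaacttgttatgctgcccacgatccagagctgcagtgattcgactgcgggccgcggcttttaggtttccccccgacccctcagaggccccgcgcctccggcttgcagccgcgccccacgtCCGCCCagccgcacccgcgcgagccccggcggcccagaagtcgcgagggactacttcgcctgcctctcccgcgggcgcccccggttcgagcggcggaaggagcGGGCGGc
Dusp6: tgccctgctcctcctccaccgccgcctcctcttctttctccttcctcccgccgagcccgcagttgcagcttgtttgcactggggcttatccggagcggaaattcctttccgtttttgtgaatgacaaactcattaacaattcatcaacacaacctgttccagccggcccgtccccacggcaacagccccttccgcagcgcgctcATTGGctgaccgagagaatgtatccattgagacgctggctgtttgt

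The Spry1 window held 1 GC box and 1 CCAAT box, the Spred1 window held 2 GC boxes, the Dusp6 window held 1 CCAAT box, and the Spry2 window held neither motif. Across 32851 RefSeq windows of the same length, 32.7% held a GC box and 33.8% a CCAAT box. A search on both strands for the core of the Notch effector RBPJ (TGGGAA), found in 21.6% of all windows, and for an ETS core (CCGGAA), found in 12.0%, gave no match in these 4 windows. Among the other members, the Fgfrl1 window held 1 RBPJ core and 1 ETS core, the Fgfr4 window held 1 ETS core, and a window at the second of the Etv5 starts held 2 RBPJ cores, with the letters of a CCAAT box overlapping 1 of them. Of the 250 bases of the Fgfr4 window, 178 are annotated as exon in GENCODE M21, and its ETS core lies in them. The Fgfrl1 window and the second Etv5 window lie inside the GENCODE spans of these genes, outside annotated exons. These are matches of letters in short windows, and binding was not measured.

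Sprouty proteins are inhibitors of receptor tyrosine kinase signalling to ERK. Spry1 (ENSMUSG00000037211.12, GRCm38 chromosome 3, 37639947 to 37644598, plus strand) spanned the widest range of the 10 genes, 3.58-fold between its lowest and highest library. It measured 25.7 and 42.3 RPKM in Em3 and Em4 of Notch2 cKO (1325 and 3034 reads), 16.3 RPKM in Notch1 cKO Em8 (1035 reads), and 11.8 and 22.4 RPKM in Em2 and Em4 of WT (718 and 1275 reads). Both Notch2 cKO libraries were above both WT libraries and above the Notch1 cKO library, which lay between the WT values. Set against WT, Notch2 cKO gave a log2 fold change of 0.97 (SE 0.29, 95% interval 0.40 to 1.54, adjusted p = 0.126), the smallest p of the 10 genes. It was 0.83 after subtraction of the median of all genes, and 0.75 with the gene length trend removed (limma adjusted p = 0.794). Without WT Em4, whose Spry1 level was nearest to Notch2 cKO Em3, the fold change was 1.41. That value sets Notch2 cKO against WT Em2 alone, the library in which all 10 genes were lower than in WT Em4. The fold change was 0.54 without WT Em2 and 0.62 without Notch2 cKO Em4. In Notch1 cKO against WT the log2 fold change was −0.004 (SE 0.35, 95% interval −0.70 to 0.70, adjusted p = 1), with −0.44 without WT Em2 and its sign turned to 0.43 without WT Em4, 0.03 with the gene length trend removed and 0.005 with voom. In Notch2 cKO against Notch1 cKO it was 0.98 (SE 0.35, 95% interval 0.28 to 1.68, adjusted p = 0.32), and 0.63 without Notch2 cKO Em4.

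Spry2 (ENSMUSG00000022114.5, GRCm38 chromosome 14, 105891947 to 105896819, minus strand) took a different order. It measured 12.1 and 6.30 RPKM in Em3 and Em4 of Notch2 cKO, 18.5 RPKM in Notch1 cKO Em8, and 11.3 and 15.1 RPKM in Em2 and Em4 of WT. Notch1 cKO was the highest library and Notch2 cKO Em4 the lowest, while Notch2 cKO Em3 lay between the WT libraries. Spry2 had a log2 fold change of −0.52 in Notch2 cKO against WT (SE 0.31, 95% interval −1.13 to 0.08, adjusted p = 0.714) and 0.47 in Notch1 cKO against WT (SE 0.37, 95% interval −0.28 to 1.21, adjusted p = 1), with 0.27 in Notch1 cKO against WT without WT Em2. The direct comparison of Notch2 cKO with Notch1 cKO gave −0.99 (SE 0.37, 95% interval −1.73 to −0.25, adjusted p = 0.352), −0.57 without Notch2 cKO Em4 and −1.41 without Notch2 cKO Em3. Its value in Notch2 cKO against WT was −0.10 without Notch2 cKO Em4, −0.95 without Notch2 cKO Em3 and −0.33 without WT Em4.

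The balance of Spry1 and Spry2 differed among the libraries. The ratio of Spry1 to Spry2 RPKM was 2.12 and 6.71 in Em3 and Em4 of Notch2 cKO, 0.882 in Notch1 cKO Em8, and 1.04 and 1.48 in Em2 and Em4 of WT. Both Notch2 cKO ratios were above both WT ratios, and the Notch1 cKO ratio was below both. Other gene pairs were not counted, so no share over all pairs stands beside this separation. The ratio of Fgfr4 to Fgfr1 did not separate the groups, at 2.59 and 5.17 in Notch2 cKO and 2.92 and 3.02 in WT. Nor did that of Etv5 to Etv4, at 9.96 and 19.3 in Notch2 cKO and 11.2 and 9.47 in WT. With 2 libraries in each group, the smallest p of an exact permutation test is 0.333, and the ratio of Spry1 to Spry2 was not tested.

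Spry4 (ENSMUSG00000024427.7, GRCm38 chromosome 18, 38586247 to 38601415, minus strand) measured 16.3 and 13.7 RPKM in Em3 and Em4 of Notch2 cKO, 7.49 RPKM in Notch1 cKO Em8, and 7.06 and 11.2 RPKM in Em2 and Em4 of WT. It was the only member of Spry1, Spry4, Spred1, Dusp6 and Etv5 whose higher Notch2 cKO value was in Em3. Both Notch2 cKO libraries were above both WT libraries, with a log2 fold change of 0.69 (SE 0.31, 95% interval 0.08 to 1.29, adjusted p = 0.569), and 0.39 without WT Em2. Against Notch1 cKO the log2 fold change of Notch2 cKO was 0.91 (SE 0.38, 95% interval 0.17 to 1.65, adjusted p = 0.457). Notch1 cKO over WT gave −0.22 (SE 0.38, 95% interval −0.97 to 0.52, adjusted p = 1), −0.52 without WT Em2 and 0.07 without WT Em4.

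Spred1 (ENSMUSG00000027351.14, GRCm38 chromosome 2, 117121374 to 117182279, plus strand), which encodes a membrane-bound relative of Sprouty that brings the Ras inhibitor neurofibromin to the membrane, measured 9.36 and 16.6 RPKM in Em3 and Em4 of Notch2 cKO, 6.21 RPKM in Notch1 cKO Em8, and 6.42 and 8.32 RPKM in Em2 and Em4 of WT. Both Notch2 cKO libraries were above both WT libraries, and Notch1 cKO was the lowest library. Notch2 cKO over WT gave a log2 fold change of 0.70 (SE 0.32, 95% interval 0.08 to 1.33, adjusted p = 0.569), 0.32 without Notch2 cKO Em4 and 1.09 without Notch2 cKO Em3. Notch1 cKO over WT gave −0.20 (SE 0.39, 95% interval −0.97 to 0.56, adjusted p = 1), −0.37 without WT Em2 and −0.04 without WT Em4. For Notch2 cKO over Notch1 cKO it was 0.91 (SE 0.39, adjusted p = 0.482), and 0.52 without Notch2 cKO Em4. The deposited Spred1 values imply a gene length of 1499 bases, while all its GENCODE M21 exons together cover 6784 bases, so its level rests on the part of the gene that the authors counted.

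Dusp6 (ENSMUSG00000019960.8, GRCm38 chromosome 10, 99263231 to 99267489, plus strand) encodes the cytoplasmic phosphatase that inactivates ERK. It measured 10.8 and 22.6 RPKM in Em3 and Em4 of Notch2 cKO, 8.73 RPKM in Notch1 cKO Em8, and 7.66 and 10.8 RPKM in Em2 and Em4 of WT. Notch2 cKO Em4 stood alone, since Notch2 cKO Em3 was level with WT Em4. The fold change of 0.72 on the log2 scale, Notch2 cKO over WT (SE 0.31, 95% interval 0.10 to 1.34, adjusted p = 0.542) was 0.22 without Notch2 cKO Em4 and 1.22 without Notch2 cKO Em3. For Notch1 cKO over WT it was −0.06 (SE 0.38, 95% interval −0.81 to 0.70, adjusted p = 1), −0.28 without WT Em2 and 0.17 without WT Em4. For Notch2 cKO over Notch1 cKO it was 0.78 (SE 0.38, adjusted p = 0.56), 0.28 without Notch2 cKO Em4 and 1.28 without Notch2 cKO Em3. Between the Notch2 cKO libraries, 2.43% of all genes tested differed by more than Dusp6 on the log2(RPKM + 1) scale, the smallest such share of the 10 genes.

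Etv5 (ENSMUSG00000013089.15, GRCm38 chromosome 16, 22381309 to 22439719, minus strand) encodes an ETS transcription factor switched on by FGF signalling. It measured 16.9 and 25.5 RPKM in Em3 and Em4 of Notch2 cKO, 11.4 RPKM in Notch1 cKO Em8, and 9.42 and 16.0 RPKM in Em2 and Em4 of WT. Both Notch2 cKO libraries were above both WT libraries, Em3 by a small margin, and Notch1 cKO lay between the WT values. Notch2 cKO over WT gave 0.71 on the log2 scale (SE 0.30, 95% interval 0.12 to 1.30, adjusted p = 0.52), 0.36 without WT Em2 and 0.43 without Notch2 cKO Em4. Notch1 cKO over WT gave −0.11 (SE 0.36, 95% interval −0.83 to 0.62, adjusted p = 1), −0.46 without WT Em2 and 0.25 without WT Em4. For Notch2 cKO over Notch1 cKO it was 0.82 (SE 0.36, adjusted p = 0.513), and 0.53 without Notch2 cKO Em4.

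Its relative Etv4 (ENSMUSG00000017724.14, GRCm38 chromosome 11, 101769742 to 101785371, minus strand) was low, at 1.69 and 1.32 RPKM in Em3 and Em4 of Notch2 cKO, 0.754 RPKM in Notch1 cKO Em8, and 0.842 and 1.69 RPKM in Em2 and Em4 of WT. These values rest on 82 and 89 reads in Notch2 cKO, 45 in Notch1 cKO, and 48 and 90 in WT. Notch1 cKO was the lowest library and Notch2 cKO Em3 the highest, by a margin over WT Em4 that is within counting error. Etv4 had a log2 fold change of 0.17 in Notch2 cKO against WT (SE 0.30, 95% interval −0.42 to 0.76, adjusted p = 0.916), turning to −0.04 with the gene length trend removed and −0.10 without WT Em2. That value was 0.06 with Notch2 cKO Em3 left out, 0.28 with Notch2 cKO Em4 left out and 0.44 without WT Em4. For Notch1 cKO over WT, Etv4 gave −0.34 (SE 0.37, 95% interval −1.07 to 0.38, adjusted p = 1), −0.61 without WT Em2 and −0.07 without WT Em4. Notch2 cKO over Notch1 cKO gave 0.51 for Etv4 (SE 0.37, adjusted p = 0.74). Etv5 exceeded Etv4 9.96-fold and 19.3-fold in Notch2 cKO, 15.1-fold in Notch1 cKO, and 11.2-fold and 9.47-fold in WT.

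**Figure D3:**
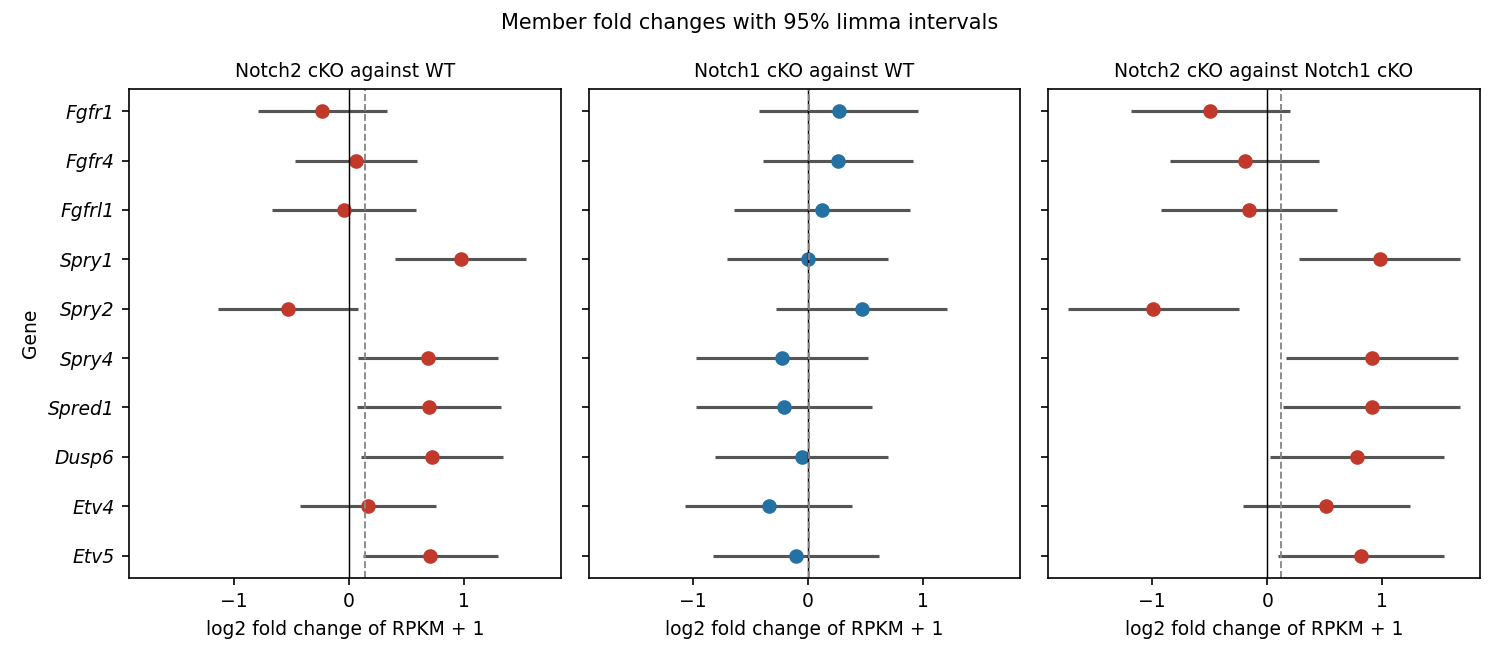
Log2 fold change of each gene on the log2(RPKM + 1) scale with its 95% interval from limma, for each comparison; the dashed line is the median of all 11543 genes. In Notch2 cKO against WT the intervals of Spry1, Spry4, Spred1, Dusp6 and Etv5 lie above 0, and none of the 10 genes passes after adjustment over all genes. The width of the intervals rests mostly on a spread pooled over genes, not on each gene's own libraries.

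Across libraries, 4 of the 10 genes (Spry1, Spry4, Spred1 and Etv5) were higher in both Notch2 cKO libraries than in both WT libraries, against 28.3% of all genes, and 0 were lower in both, against 9.44%. This count was 5 when either Notch2 cKO library was left out, where 45.8% of all genes were higher, 4 without WT Em2 (35.7%), and 8 without WT Em4, where 59.9% of all genes were higher. The Notch1 cKO library was above both WT libraries in 1 gene (Spry2), against 24.3% of all genes, and below both in 2 (Spred1 and Etv4), against 26.1%. Both Notch2 cKO libraries were above the Notch1 cKO library in 6 genes, against 47.7% of all genes, and below it in 3 (Fgfr1, Fgfr4 and Spry2), against 25.2%. The 6 genes were Spry1, Spry4, Spred1, Dusp6, Etv4 and Etv5, and the Notch1 cKO side of this count is 1 library.

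The column names carry digits that resemble dates, with a meaning the sources used here do not give, and they allow a pair of comparisons within the same digits. Notch2 cKO Em4 minus WT Em4 on the log2(RPKM + 1) scale was 0.89 for Spry1, 0.996 for Dusp6, 0.92 for Spred1, 0.64 for Etv5, 0.27 for Spry4, −1.14 for Spry2 and −0.88 for Fgfr1. Notch2 cKO Em3 minus Notch1 cKO Em8 was 0.63 for Spry1, 0.28 for Dusp6, 0.52 for Spred1, 0.53 for Etv5, 1.03 for Spry4, −0.57 for Spry2 and −0.21 for Fgfr1. For the others, these differences were −0.14 and −0.39 for Fgfr4, −0.30 and −0.34 for Fgfrl1, and −0.21 and 0.62 for Etv4. Etv4 differed in sign between the pairs, which set Notch2 cKO against different groups. Over all genes, 68.1% were above 0 in Notch2 cKO against WT and 61.8% in Notch2 cKO against Notch1 cKO. Agreement of sign between these pairs was not counted over all genes, so none is read from the members. Notch1 cKO and WT have no pair with the same digits, so for them the digits and the genotype cannot be told apart.

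The rest of the pathway was read from 6 lists of 84 genes. None of the genes tested in these lists was called in any comparison. Of 22 FGF ligand genes, 6 were tested and 5 were above 0 in log2 fold change, Notch2 cKO over WT, with a median of 0.19. The most abundant was Fgf13, an intracellular member of the family that is not secreted, at 10.9 and 13.0 RPKM in Notch2 cKO, 12.7 RPKM in Notch1 cKO, and 9.31 and 12.6 RPKM in WT. Of 7 other receptors and co-receptors, 2 were tested, and the most abundant was Flrt3, a membrane protein that binds FGF receptors, at 4.21 and 4.03 RPKM in Notch2 cKO, 2.63 RPKM in Notch1 cKO, and 2.54 and 2.48 RPKM in WT (0.55 on the log2 scale in Notch2 cKO against WT, adjusted p = 0.714).

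Heparan sulfate proteoglycan and modifying enzyme genes were above 0 on the log2 fold change scale in 17 of 17 tested in Notch2 cKO against WT and 16 of 17 in Notch1 cKO against WT, where 68.1% and 51.5% of all genes were above 0. Their medians were 0.24 and 0.27, against 0.14 and 0.01 for all genes. Both counts share the same WT libraries, so they are not separate observations. The listed genes summed to 449 and 585 RPKM in Em3 and Em4 of Notch2 cKO and 482 RPKM in Notch1 cKO. In WT they summed to 334 RPKM in Em2 and 520 RPKM in Em4. Only WT Em2 was below every knockout library, and WT Em4 was above Notch1 cKO and Notch2 cKO Em3. Gpc3, a glypican and the most abundant of them, measured 144 and 237 RPKM in Notch2 cKO, 161 RPKM in Notch1 cKO, and 120 and 201 RPKM in WT. The adaptor, Ras and MAP kinase list had 11 of 18 genes above 0 in Notch2 cKO against WT (median 0.08) and 8 of 18 in Notch1 cKO against WT (median −0.03). Its most abundant gene, the ERK-activating kinase gene Map2k2, measured 99.1 and 99.5 RPKM in Notch2 cKO, 98.4 RPKM in Notch1 cKO, and 92.9 and 125 RPKM in WT.

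Of 11 other feedback genes, 7 were tested, with 5 above 0 and a median of 0.22 in Notch2 cKO against WT. Rasa1, a Ras GTPase-activating protein gene and the most abundant, measured 13.9 and 13.5 RPKM in Notch2 cKO, 14.8 RPKM in Notch1 cKO, and 10.4 and 15.0 RPKM in WT. Dusp4, a nuclear MAP kinase phosphatase gene named after its values were seen, measured 5.32 and 6.86 RPKM in Notch2 cKO, 2.02 RPKM in Notch1 cKO, and 2.13 and 2.72 RPKM in WT. Both Notch2 cKO libraries were above the other 3 (1.05 on the log2 scale, Notch2 cKO over WT, SE 0.32, adjusted p = 0.153). Spry3 was listed at 0 in all 5 libraries. Of 8 other ERK targets, 7 were tested and 6 were above 0 in each knockout against WT, with medians of 0.17 and 0.37. Fos, the most abundant, measured 705 and 512 RPKM in Notch2 cKO, 707 RPKM in Notch1 cKO, and 510 and 560 RPKM in WT.

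Markers of other cells and of stress differed between the same libraries. The summed RPKM of 10 tendon and cartilage markers was 52.1 and 175 in Em3 and Em4 of Notch2 cKO, 69.0 in Notch1 cKO Em8, and 47.5 and 68.7 in Em2 and Em4 of WT, so that Notch2 cKO Em4, the library highest in Spry1, Spred1, Dusp6 and Etv5, was also highest here. The sum of 12 interstitial fibroblast markers was 246 and 365 in Notch2 cKO, 372 in Notch1 cKO, and 156 and 242 in WT, and that of 6 haematopoietic markers was 10.6 and 22.1 in Notch2 cKO, 12.8 in Notch1 cKO, and 10.7 and 15.8 in WT. Endothelial markers summed to between 3.95 and 6.90 RPKM over 6 genes. Of these 4 lists, Ptprc in WT Em2 was the only marker at 0 in a library. All 9 tendon and cartilage markers tested were above 0 in Notch2 cKO against WT, with a median log2 fold change of 0.88 and none called, and 9 of 10 fibroblast markers were above 0, with a median of 0.64 and none called. In Notch1 cKO against WT, 10 of 10 fibroblast markers were above 0, with a median of 0.92, and Mfap5 was called higher (adjusted p = 0.0169). In Notch2 cKO against Notch1 cKO, the cartilage gene Matn1 was called higher (adjusted p = 0.0251) and the fibroblast gene Dpt lower (adjusted p = 0.0425). The most abundant tendon and cartilage marker, Scx, was 34.2 and 31.3 RPKM in Notch2 cKO, 37.9 RPKM in Notch1 cKO, and 30.5 and 31.0 RPKM in WT. The collagen gene Col3a1, the most abundant fibroblast marker, was 99.6 and 183 RPKM in Notch2 cKO, 148 RPKM in Notch1 cKO, and 61.7 and 120 RPKM in WT. Cd68, of macrophages, and Tek, of endothelium, did not exceed 9.64 and 5.10 RPKM in any library. Cd68 does not stand for its list: it was lowest, at 5.13 RPKM, in Notch2 cKO Em4, where the haematopoietic sum was highest. Of 3 haematopoietic markers tested, 2 were above 0 in Notch2 cKO against WT, with a median log2 fold change of 0.53 and none called, while Cd68 was at −0.51. The part of these markers in the levels of the FGF pathway genes was not tested.

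**Figure D4:**
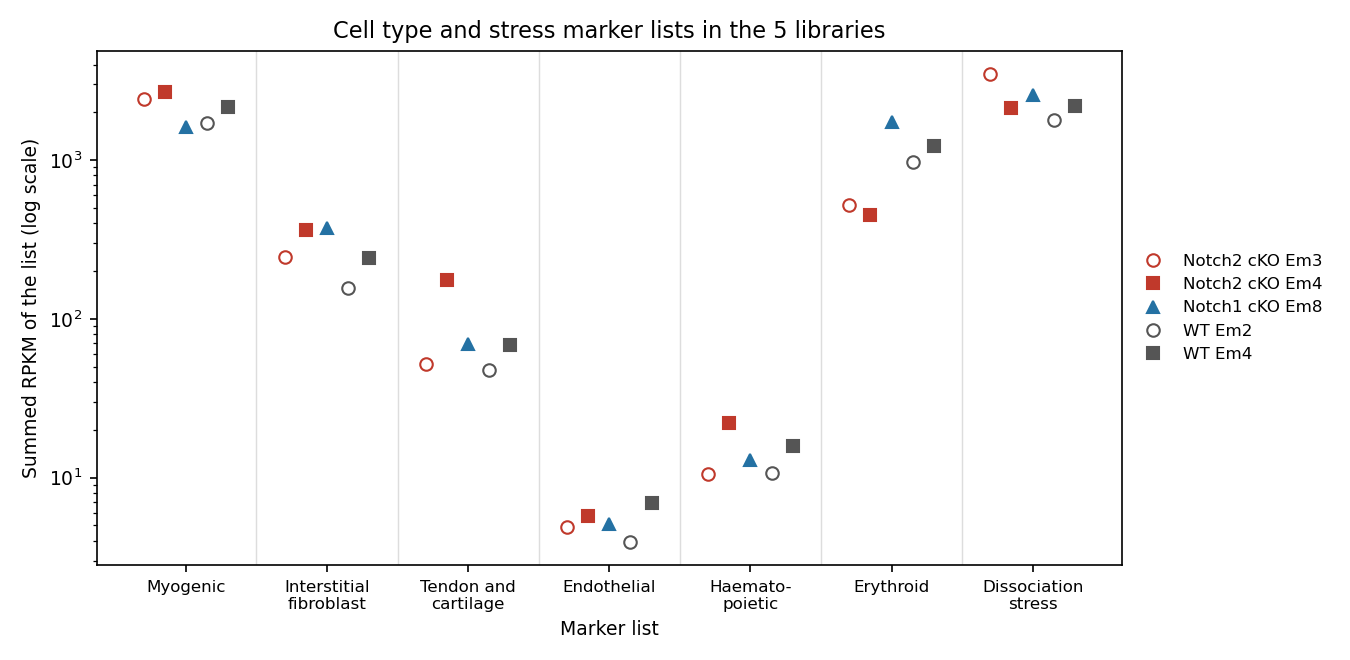
Summed RPKM, on a log axis, of the lists of markers used for the check of cell type and stress, with each symbol a library. Notch2 cKO Em4 is highest in tendon and cartilage markers at 175 RPKM, and Notch2 cKO Em3 is highest in dissociation stress markers at 3482 RPKM.

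The 12 dissociation and stress genes, which include targets of ERK, summed to 3482 and 2133 RPKM in Em3 and Em4 of Notch2 cKO, 2556 RPKM in Notch1 cKO Em8, and 1803 and 2200 RPKM in Em2 and Em4 of WT. Their most abundant gene, Junb, measured 673 and 647 RPKM in Notch2 cKO, 685 RPKM in Notch1 cKO, and 483 and 714 RPKM in WT. In log2 fold change, 11 of the 12 were above 0 in Notch2 cKO against WT, with a median of 0.64 against 0.14 for all genes. In Notch1 cKO against WT, 11 of 12 were above 0, with a median of 0.44 against 0.01. Of the 12, Hspa1a and Hspa1b were called higher in Notch2 cKO against WT, and Fosb lower in Notch2 cKO against Notch1 cKO. The library highest in this list, Notch2 cKO Em3, was the highest in Spry4 and Etv4. Despite the Ter119 gate, the 6 erythroid genes in the table summed to 520 and 449 RPKM in Notch2 cKO, 1749 RPKM in Notch1 cKO, and 979 and 1219 RPKM in WT, led by Hba-a2, an alpha-globin gene, at 193 and 165 RPKM in Notch2 cKO, 676 RPKM in Notch1 cKO, and 431 and 478 RPKM in WT; 3 of the 5 tested were called lower in Notch2 cKO against WT and 4 of 5 in Notch2 cKO against Notch1 cKO. Pax7, the progenitor gene that drives the recombinase, was 10.7 and 4.15 RPKM in Em3 and Em4 of Notch2 cKO, 13.4 RPKM in Notch1 cKO Em8, and 9.90 and 12.0 RPKM in WT, so that it was lowest in the library lowest in Spry2 and Fgfr1. Myod1, a gene of committed myoblasts, was 180 and 188 RPKM in Notch2 cKO, 109 RPKM in Notch1 cKO, and 135 and 167 RPKM in WT, and the part of myogenic state in the values was not tested.

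The 3 genes whose profiles over the 5 libraries were most like that of Spry1, by the root mean square difference of centred log2(RPKM + 1) values among 7687 genes averaging at least 5 RPKM, were Actn2 (0.05), Dvl2 (0.11) and Slc2a1 (0.12). Actn2, a sarcomere gene of the Z-disc, measured 21.5 and 36.6 RPKM in Em3 and Em4 of Notch2 cKO, 13.2 RPKM in Notch1 cKO Em8, and 10.1 and 17.5 RPKM in Em2 and Em4 of WT. Dvl2, a Wnt signalling gene, measured 7.77 and 11.8 RPKM in Notch2 cKO, 5.47 RPKM in Notch1 cKO, and 3.45 and 7.22 RPKM in WT. Slc2a1, a glucose transporter gene, measured 11.2 and 17.8 RPKM in Notch2 cKO, 6.57 RPKM in Notch1 cKO, and 5.95 and 9.45 RPKM in WT. In each of them, as in Spry1, the highest value was in Notch2 cKO Em4 and the lowest in WT Em2. The genes were picked for their likeness to Spry1 over these same libraries, so this shared order follows from the choice.

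Exons of Spry1 and Fgfr1 are overlapped on the other strand by GENCODE genes, Gm42922 over 710 bases of Spry1 and Gm16159 over 164 bases of Fgfr1. The sources used here do not say whether counting used strand, so reads in those bases cannot be assigned to a strand.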

How the data were processed

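Transcripts of sorted tdTomato-positive limb cells were sequenced with a low-input full-length kit, per the labels' protocols. Tools named in the submitters' processing notes are bcl2fastq 2.20.0, with mm10 as the build; the aligner, counter and strand setting were not given in the sources used here. The authors deposited RPKM values for all libraries in a single table, per the file headers. Its columns name a group and a tag but no replicate number, so libraries were matched to groups only. Of 27179 rows, 1306 have no gene name (2.19% to 3.07% of summed RPKM) and were left out.

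Values were tested as log2(RPKM + 1) with limma 3.58.1 in R 4.3.3, with a trend, a mean per group, all 5 libraries and genes averaging at least 1 RPKM; with 1 Notch1 cKO library, the spread comes from the others (2 residual and 103.8 prior degrees of freedom). Adjusted p-values are Benjamini-Hochberg over all genes tested, two-sided. RPKM steps gave whole-base gene lengths (tolerance 0.02 bases) for 96.5% of 10534 low genes, from which reads and library totals of 20740258 to 28827897 were recovered and used for voom. The fit was also run on simulated reads. These had no gene length trend between libraries, so that run does not show how the fit does on libraries that differ as these do. Alternatives changed the pseudocount, filter, scaling, length trend, test and libraries.

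The members and lists were chosen with earlier results of these data known. Named genes are the members, the targeted genes, Fgfr2, Fgfr3, Pax7, Myod1, Myog, the most abundant and any called gene of each pathway list, the most abundant of each marker list, and the 3 profiles most like that of the member of widest range. Outside this rule, Dusp4, Ptprc and the called genes of the marker lists (Mfap5, Dpt, Matn1, Hspa1a, Hspa1b, Fosb) were named after their values were seen.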

Additional observations from a re-analysis of the deposited data

How the results depend on the processing

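No paired analysis was possible because the columns carry no replicate number; the digits in their names give 1 pair in each Notch2 cKO comparison, too few for a blocked fit, and those differences are values with no test. Of 397 values of the 10 genes under 14 alternatives, 374 kept their direction and side of the threshold, 1 became a call (Spry1 in Notch2 cKO against WT without WT Em4) and 22 turned sign; the cause was not tested. Some of the 374 could not turn sign. A change of filter, or leaving out a library of neither group compared, leaves the fold change as it was. With none of the genes called in the main fit, the side of the threshold could change only by a new call. In Notch2 cKO against WT, Fgfr4 was −0.10 with median-of-ratios scaling and −0.19 with the length trend removed, Etv4 was −0.035 with the length trend removed, and Fgfrl1 was 0.11 at the same summed RPKM. In Notch1 cKO against WT, Spry1 was 0.026 with the length trend removed and 0.0046 with voom. In Notch2 cKO against Notch1 cKO, Fgfrl1 was 0.0028 at the same summed RPKM. Leaving out 1 library at a time, Notch2 cKO against WT ran from −0.59 to 0.14 for Fgfr1, −0.34 to 0.46 for Fgfr4, −0.47 to 0.39 for Fgfrl1 and −0.10 to 0.44 for Etv4. Notch1 cKO against WT ran from −0.10 to 0.63 for Fgfr1, −0.14 to 0.66 for Fgfr4, −0.31 to 0.55 for Fgfrl1, −0.44 to 0.43 for Spry1, −0.52 to 0.075 for Spry4, −0.28 to 0.17 for Dusp6 and −0.46 to 0.25 for Etv5. Fgfrl1 in Notch2 cKO against Notch1 cKO ran from −0.34 to 0.017. The number of the 10 genes called in Notch2 cKO against WT ran from 0 to 1, and the number higher in every Notch2 cKO than every WT library ran from 4 to 8, a count chosen after seeing the data.

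Over all genes, Notch2 cKO against WT had 62 calls (41 higher, 21 lower). It had 33 with a filter at 5 RPKM (14 higher, 19 lower), 26 with median-of-ratios scaling (14 and 12), 28 at the same summed RPKM (26 and 2), 4 with quantile normalization (3 and 1), 2 with the length trend removed, 1 with voom, and 13 (without WT Em2) to 287 (without WT Em4, 52 higher and 235 lower) leaving out 1 library. Notch1 cKO against WT had 8 calls, 15 with a pseudocount of 0.1, 3 at the same summed RPKM, 1 with quantile normalization, 3 with voom, 0 with the length trend removed (277 genes at an unadjusted p under 0.05) and 1 to 5 leaving out 1 library. Notch2 cKO against Notch1 cKO had 56 calls (32 higher, 24 lower), 32 with median-of-ratios scaling (14 and 18), 27 at the same summed RPKM (20 and 7), 13 with quantile normalization (5 and 8), 14 with voom (5 and 9), 0 with the length trend removed (900 at an unadjusted p under 0.05) and 35 (without Notch2 cKO Em4) to 67 leaving out 1 library. With no filter, limma made 0 calls in each, with 1050, 301 and 983 genes at an unadjusted p under 0.05. A lone library left in a group is assumed to vary like the others. The median of all genes in Notch2 cKO against WT was 0.14, and 0.28 at the same summed RPKM. Etv4, at 45 to 90 reads, is the gene most limited by depth.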
